A study of Homo sapiens with 4 samples.

Results

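The PLAG1 family of zinc-finger transcription factors and the insulin-like growth factor (IGF) axis were examined in PC3-BM cells, a bone-metastatic derivative of the human prostate cancer line PC-3, against the parental line, PC3-P. The set held 10 genes, PLAG1, PLAGL1, PLAGL2, HMGA2, IGF1R, IGF2R, IGFBP2, IGFBP3, IGFBP6 and IGFBP7, and 8 of them were measured by a probe set whose annotation gave that gene symbol and no other, out of 18417 genes measured in this way on the array. Where a gene had several such probe sets, the one with the highest mean over the 4 arrays was used, a choice made on brightness and not on the difference between the lines. HMGA2 and IGFBP6 had only probe sets annotated to several gene symbols, and no value was given for them. The genes were chosen with earlier results of these data known, and the study itself picked PLAG1 from this comparison, so the values of PLAG1 are a description with no test.

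Per the labels, PC3-BM cells have high metastatic potential and were isolated from bone. The study's methods describe them as a clone recovered from nude mice in which PC-3 cells, injected into the heart, had formed bone metastases. In the study, recovered cells were expanded in culture under geneticin selection, sorted by their green fluorescent protein and injected into new mice. PC3-BM was taken from the last of several such rounds. The parental cells, PC3-P, carry the label of poor metastatic potential, although PC-3 was itself established from a prostate cancer metastasis in bone. Both lines carried the firefly luciferase gene and green fluorescent protein, and neither received a treatment as part of the comparison. PC3-BM is 1 selected derivative, so a property of that clone and a property of bone-metastatic cells cannot be told apart. The labels speak of growth in mice, whereas the methods give conditions of cell culture, and which of these applied when RNA was taken is not settled here. Each line had 2 Affymetrix Human Gene 1.0 ST arrays. Whether the arrays of a line stem from separate cultures is not stated in the labels, so the p-values reflect the spread between arrays alone, possibly a technical one.

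PLAG1, PLAGL1 and PLAGL2 are related DNA-binding proteins. PLAG1 was found through chromosome rearrangements that activate it in pleomorphic adenomas of the salivary gland, and it is known to activate the gene of the growth factor IGF2. PLAGL1, also called ZAC1, is an imprinted gene with growth-restraining activity, and HMGA2 is a chromatin protein known to act upstream of PLAG1. IGF1 and IGF2 signal through IGF1R, a receptor tyrosine kinase, while IGF2R takes IGF2 up for breakdown in lysosomes. The IGF binding proteins (IGFBPs) hold the ligands in the extracellular fluid and set how much of them reaches the receptors. Bone matrix is rich in IGFs, and the axis has long been studied in prostate cancer that grows in bone.

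The study chose PLAG1 from this comparison as a candidate target of the microRNA miR-135b. In its own assays, quantitative PCR gave higher PLAG1 in PC3-BM, and a miR-135b mimic lowered PLAG1 there. The mimic also lowered a luciferase reporter that carried the untranslated region of PLAG1, which the study read as direct regulation. The study also reported lower miR-135b in PC3-BM by PCR cards and single assays. The mature miR-135b sequence from RefSeq (GRCh38.p14, chr1:205448361-205448383, minus strand) is shown to identify it, beside miR-135a (chr3:52294270-52294292, minus strand), which shares the seed. Capitals mark the seed, bases 2 to 8 from the 5′ end, by which a microRNA pairs with its targets.
miR-135b-5p: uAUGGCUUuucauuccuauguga
miR-135a-5p: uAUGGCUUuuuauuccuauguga
The 2 microRNAs have the same seed and differ by U11C, the base of miR-135a first and positions counted from 1 at the 5′ end. The gene of miR-135b, MIR135B, had no probe set annotated to it alone, so its level was not given here. LEMD1, its host gene, averaged 4.33 ± 0.03 in PC3-BM and 4.35 ± 0.01 in PC3-P (log2, SD, n = 2 each), a difference of −0.02 (SE 0.07, limma adjusted p = 0.875). Both means lay below the lower quartile of all values (5.02), so this flat value says little about LEMD1 or MIR135B.

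PLAG1 had log2 values of 7.45 and 7.38 on the PC3-BM arrays, against 5.32 and 5.42 on the PC3-P arrays. Both PC3-BM arrays lay well above both PC3-P arrays. The log2 scale means that a difference of 1 is a doubling of the signal, and PLAG1 was higher in PC3-BM by 2.04 (95% confidence interval 1.84 to 2.24), or 4.11-fold. It was the largest difference among the 8 measured genes, and 0.279% of the 33297 probe sets on the array differed by more in either direction. As the study picked PLAG1 from this comparison, its rank and interval only describe a selected gene. When each array was left out in turn, the difference stayed between 1.99 and 2.09.

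The other family members differed less. PLAGL1 had values of 9.25 and 9.23 in PC3-BM, against 8.73 and 8.74 in PC3-P. The arrays of a line were nearly equal and the lines did not overlap. PLAGL1 rose by 0.50 (SE 0.07, 1.42-fold, adjusted p = 0.00908 in limma with Benjamini-Hochberg adjustment over all probe sets). This call was lost without PC3-BM replicate 1 (0.49, adjusted p = 0.0538), without PC3-P replicate 1 (0.50, adjusted p = 0.0628) and without PC3-P replicate 2 (0.51, adjusted p = 0.0638), while the difference hardly moved. PLAGL2, a transcription factor of the same DNA-binding type, had values of 8.71 and 8.67 in PC3-BM, against 8.77 and 8.75 in PC3-P. Its difference of −0.07 did not pass the test (95% confidence interval −0.25 to 0.10, adjusted p = 0.51). The 3 related genes thus ran from a 4.11-fold higher signal in PC3-BM to an interval that spans 0.

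**Figure D1:**
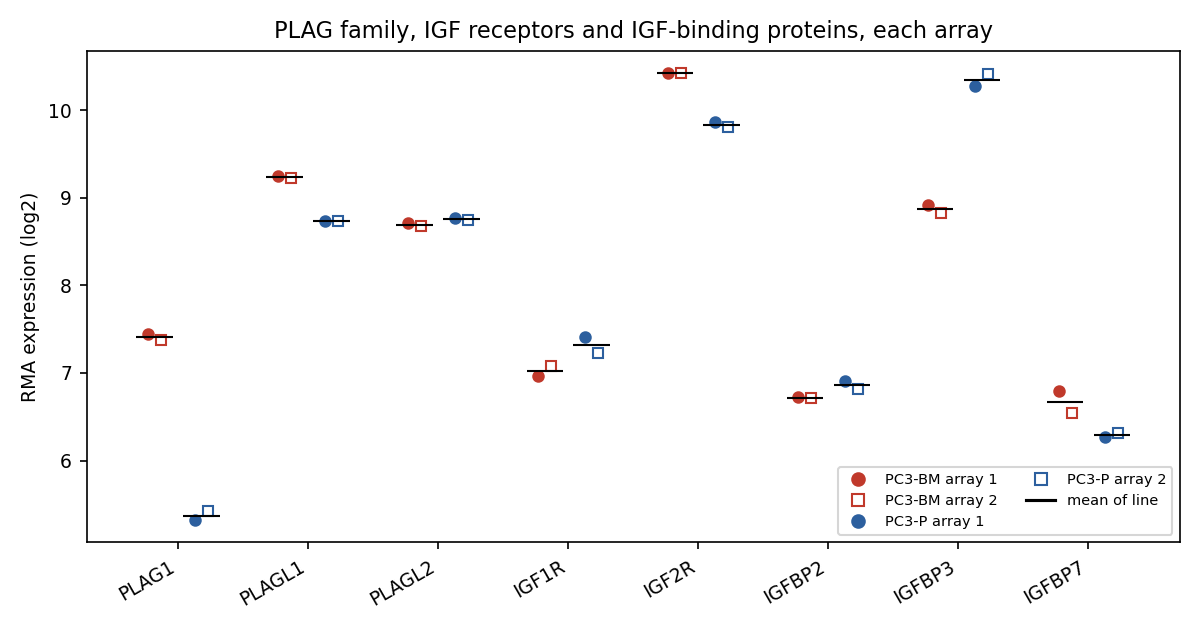
RMA log2 value (y axis) of each measured gene on the 2 PC3-BM arrays (left of each pair) and the 2 PC3-P arrays (right), with the bar at the mean. Levels are to be compared within a gene and not between genes, and the lines stand farthest apart for PLAG1 (means 7.41 and 5.37) and IGFBP3 (means 8.88 and 10.34).

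Of the receptors, IGF2R was higher in PC3-BM and the growth-signalling receptor IGF1R did not pass the test. IGF2R had values of 10.42 and 10.42 in PC3-BM, against 9.86 and 9.81 in PC3-P, with no overlap. It rose by 0.59 (SE 0.07, 1.5-fold, adjusted p = 0.00681), and without PC3-P replicate 2 the difference was 0.56 and the call was lost (adjusted p = 0.0561). IGF1R had values of 6.96 and 7.08 in PC3-BM, against 7.41 and 7.23 in PC3-P. Both PC3-BM arrays lay below both PC3-P arrays, but the PC3-P arrays themselves were spread, and the difference of −0.30 had an adjusted p of 0.0887 (95% confidence interval −0.54 to −0.05). A second IGF1R probe set, the one passed over as dimmer (mean over the 4 arrays 6.21, against 7.17), had values of 6.29 and 6.08 in PC3-BM, against 6.14 and 6.31 in PC3-P. There the lines overlapped, and the difference was −0.04 (SE 0.11, adjusted p = 0.835). The IGF1R call also depended on which probe sets were tested, with an adjusted p of 0.0422 among probe sets with a mean above 6 and 0.0322 among those with 1 gene symbol.

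The binding proteins moved in different directions. IGFBP3, the main carrier of IGFs in the circulation, had values of 8.92 and 8.83 in PC3-BM, against 10.27 and 10.41 in PC3-P. The lines were far apart, and IGFBP3 fell by 1.46 on the log2 scale (SE 0.08, 95% confidence interval of the difference −1.68 to −1.25, adjusted p = 0.00183), which is a 2.76-fold lower signal in PC3-BM. Of all probe sets 0.883% differed by more, and the adjusted p stayed between 0.0187 and 0.0306 when each array was left out in turn. IGFBP7, a secreted protein that binds IGFs weakly and is found in vessel walls and matrix, had values of 6.79 and 6.55 in PC3-BM, against 6.27 and 6.31 in PC3-P. The lines did not overlap, yet the PC3-BM arrays were spread, and the difference of 0.38 did not pass the test (SE 0.10, adjusted p = 0.0613). It passed among probe sets with a mean above 5 (adjusted p = 0.0401), with a mean above 6 (adjusted p = 0.0269) and with 1 gene symbol (adjusted p = 0.0174). IGFBP2, a binding protein with a higher affinity for IGF2 than for IGF1, had values of 6.73 and 6.71 in PC3-BM, against 6.90 and 6.82 in PC3-P. Its difference of −0.14 did not pass the test (95% confidence interval −0.33 to 0.04, adjusted p = 0.223).

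With PLAG1 set aside, 2 of 7 measured genes rose, 1 fell and 4 did not pass the test. Over all 33297 probe sets 23.2% were called at an adjusted p below 0.05, 11.6% as risen and 11.6% as fallen. Among the 19460 probe sets with 1 gene symbol, the kind used for every gene named here, the same fit called 29.3%, with 14.6% risen and 14.7% fallen. Nothing is read from the count for these genes, since they were chosen with results known. The arrays of the lines did not overlap for any of the 8 genes, as was the case for 62.8% of all probe sets and 70.3% of those with 1 gene symbol. The median difference of the 7 genes was −0.07, beside −0.02 over all probe sets and −0.04 over those with 1 gene symbol. With 2 arrays a line, an exact two-sided permutation test of a single gene cannot go below 0.333, so the calls rest on the variance that limma shares across probe sets.

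**Figure D2:**
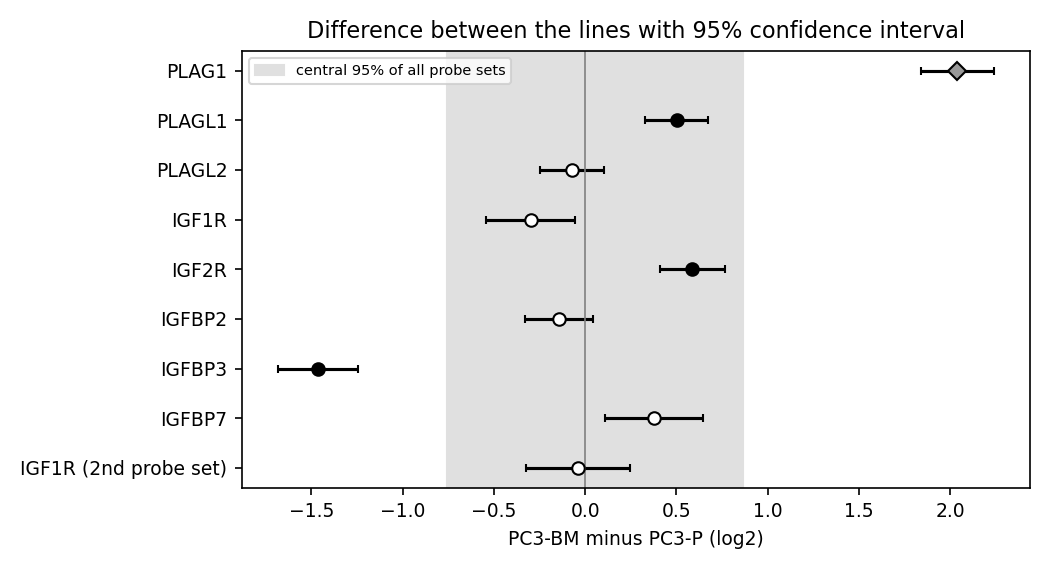
Difference in log2 value, PC3-BM minus PC3-P (x axis), with its 95% confidence interval for each measured gene and for the second IGF1R probe set. Filled circles passed an adjusted p of 0.05, open circles did not, and the grey diamond is PLAG1, given without a test; the grey band holds the central 95% of all probe sets, from −0.76 to 0.87, and only PLAG1 (2.04) and IGFBP3 (−1.46) lie outside it.

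The genes whose pattern over the 4 arrays was most like that of PLAG1 were found by the Euclidean distance between profiles, each centred on its own mean. They were LDAF1 (distance 0.0673), a lipid droplet protein, SLC17A5 (0.0968), the lysosomal sialic acid exporter, ENO2 (0.0984), the neuronal form of the glycolytic enzyme enolase, ST6GAL2 (0.107), a sialyltransferase, and MT1X (0.113), a metal-binding metallothionein. Their differences lay between 1.94 for ST6GAL2 and 2.15 for MT1X, beside 2.04 for PLAG1.

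In the chromosomal neighbourhood, the 10 measured genes on either side of each gene were taken in the order of the RefSeq gene table, a window chosen after values had been seen. Around PLAGL1 10 of 20 neighbours rose and 0 fell (median difference 0.28). Around IGF2R 7 rose and 1 fell (median 0.07), and around PLAG1 5 rose and 2 fell (median 0.05). The other members had fewer risen neighbours. Around IGFBP7 4 rose and 2 fell, around IGF1R 2 rose and 2 fell, and around IGFBP3 2 rose and 1 fell. Around PLAGL2 1 rose and 1 fell, and around IGFBP2 1 rose and 0 fell. Over all probe sets 11.6% rose, and 14.6% of those with 1 gene symbol. Raised neighbours of PLAGL1 included UTRN (0.73, adjusted p = 0.00415), the dystrophin relative utrophin, and AIG1 (0.79, adjusted p = 0.00533), while its nearest neighbours ZC2HC1B (0.13, adjusted p = 0.436) and SF3B5 (0.01, adjusted p = 0.971) did not pass. With any 1 array left out, fewer neighbours of PLAGL1, IGF2R and PLAG1 were called as risen. Fewer probe sets of the whole array were called as risen in those fits too, so the shares above do not apply to them. The part of these neighbours in the differences of PLAGL1 and IGF2R was not tested.

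The genes next to PLAG1 were CHCHD7, which shares a divergent promoter region with it, and MOS, a germ-cell kinase. CHCHD7 had values of 6.25 and 6.03 in PC3-BM, against 5.94 and 5.73 in PC3-P, a difference of 0.31 that did not pass the test (SE 0.12, adjusted p = 0.131), and MOS differed by −0.08 (adjusted p = 0.664). Farther out, the Src-family kinase LYN fell by 1.15 and the transcription factor TOX rose by 1.71 (adjusted p = 0.00577 for LYN and 0.00206 for TOX). The genes beside PLAG1 thus did not move in 1 direction. Next to IGFBP3 in gene order, the binding protein IGFBP1 differed by −0.34 (SE 0.14, adjusted p = 0.163). On the other side TNS3, the gene of a focal adhesion protein and 1354 kilobases away, rose by 0.76 (adjusted p = 0.00384). Next to IGF2R, MAS1 differed by −0.03 (adjusted p = 0.882), and CHP1P2, a pseudogene that overlaps IGF2R, rose by 0.82 (adjusted p = 0.0161). Next to IGFBP7 in gene order, POLR2B differed by −0.08. On the other side ADGRL3, an adhesion receptor gene 4090 kilobases away, rose by 1.19 (adjusted p = 0.0129). Beside PLAGL2 the values were −0.09 for TSPY26P and −0.05 for POFUT1, and beside IGF1R PGPEP1L differed by −0.24 (adjusted p = 0.146). IGFBP2 lies between RPL37A (0.08) and IGFBP5 (−0.17), and neither passed the test. LYN lost its call without PC3-P replicate 2 (−1.07, adjusted p = 0.0516), and CHP1P2 and ADGRL3 lost theirs without either PC3-P array (adjusted p 0.0779 to 0.0976).

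**Figure D3:**
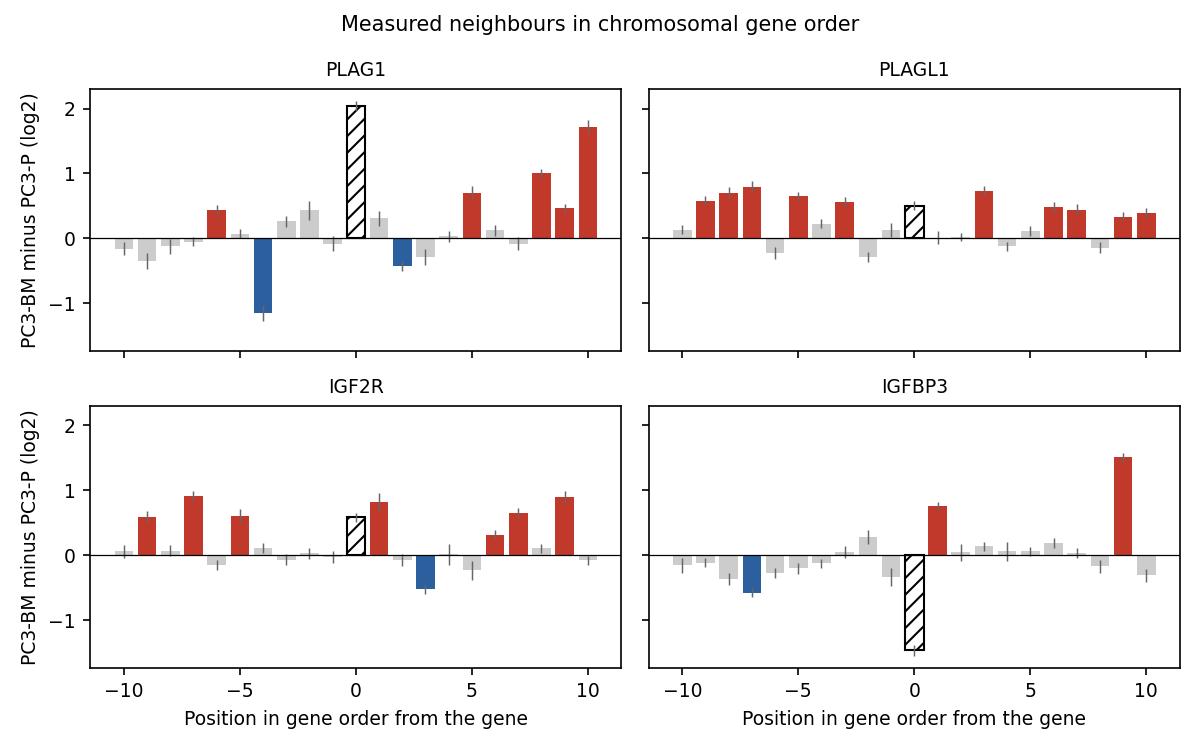
Difference in log2 value, PC3-BM minus PC3-P (y axis), of the 10 measured genes on either side of PLAG1, PLAGL1, IGF2R and IGFBP3 in chromosome order (x axis, position relative to the gene). The hatched bar is the gene itself, red bars rose, blue bars fell, grey bars did not pass the test and error bars are the SE. Of 20 neighbours 10 rose around PLAGL1, 7 around IGF2R, 5 around PLAG1 and 2 around IGFBP3.

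Of the ligands in the list only IGF1 was measured, and it was dim. IGF2 had only probe sets annotated to several gene symbols, and no value was given. IGF1 averaged 4.33 ± 0.13 in PC3-BM and 4.40 ± 0.00 in PC3-P (SD, n = 2 each), a difference of −0.06 (SE 0.09, adjusted p = 0.65). INSR, the insulin receptor, which forms hybrids with IGF1R, had values of 8.03 and 7.95 in PC3-BM, against 7.72 and 7.63 in PC3-P. It rose by 0.31 (SE 0.08, adjusted p = 0.0459), the only gene to do so of 3 measured in the list of ligands and receptors, and the call was lost when any 1 of the 4 arrays was left out (adjusted p 0.101 to 0.185). Beside that count, 14.6% of probe sets with 1 gene symbol rose. The median difference of that list was 0.00.

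None of the 5 other binding and acid-labile proteins passed the test, where 29.3% of probe sets with 1 gene symbol were called. Their median difference was −0.21. IGFBP4, which inhibits IGF action until it is cleaved, differed by 0.23 (SE 0.07, adjusted p = 0.0777), a call that was made among probe sets with a mean above 6 (adjusted p = 0.0347). IGFBP5, abundant in bone, differed by −0.17 (SE 0.11, adjusted p = 0.333) and IGFBPL1 by −0.21 (SE 0.11, adjusted p = 0.234).

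Among the proteases that cleave IGFBPs and the inhibitors of those proteases, 3 of 8 measured genes rose and 0 fell (median 0.10), where 14.6% of 1-symbol probe sets rose. Stanniocalcin-1, STC1, an inhibitor of the IGFBP4 protease PAPPA, had values of 11.13 and 11.06 in PC3-BM, against 9.37 and 9.39 in PC3-P. The lines stood far apart, and STC1 rose by 1.71 (SE 0.07, 3.28-fold, adjusted p = 0.00114). STC2, the other stanniocalcin and also a PAPPA inhibitor, had values of 9.97 and 9.92 in PC3-BM, against 9.17 and 9.12 in PC3-P, and rose by 0.80 (SE 0.07, adjusted p = 0.00385). ADAM12, a metalloprotease that cleaves IGFBP3 and IGFBP5, had values of 9.04 and 9.02 in PC3-BM, against 8.25 and 8.18 in PC3-P, and rose by 0.81 (SE 0.07, adjusted p = 0.00373). The proteases PAPPA, PAPPA2, HTRA1, MMP7 and KLK3 differed by between −0.03 and 0.13 and did not pass the test. Of these, PAPPA (mean 5.06), PAPPA2 (4.81) and MMP7 (4.76) lay near or below the lower quartile of all values (5.02).

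Of the genes of signalling below the receptor, 20 of 24 were measured by a probe set of their own, 3 rose, 4 fell and 13 did not pass the test (median 0.05). The 7 changed genes of 20 stand beside 29.3% called among 1-symbol probe sets. AKT1, the kinase that carries the survival signal, had values of 9.95 and 9.97 in PC3-BM, against 10.67 and 10.74 in PC3-P, and fell by 0.75 (SE 0.07, adjusted p = 0.00435). IRS1, the docking protein of the insulin and IGF1 receptors, had values of 8.39 and 8.28 in PC3-BM, against 8.83 and 8.91 in PC3-P, and fell by 0.54 (SE 0.08, adjusted p = 0.0116). Neither gene overlapped between the lines, as was the case for 70.3% of probe sets with 1 gene symbol. GRB10, an adaptor that restrains both receptors, had values of 10.05 and 9.93 in PC3-BM, against 9.23 and 9.26 in PC3-P, and rose by 0.75 (SE 0.08, adjusted p = 0.0051). SHC1, an adaptor toward the RAS pathway, had values of 10.54 and 10.55 in PC3-BM, against 9.997 and 9.97 in PC3-P, and rose by 0.57 (SE 0.07, adjusted p = 0.007). TSC1, a brake on the growth kinase mTOR, rose by 0.38 (SE 0.09, adjusted p = 0.045), while SOS1, which activates RAS, and PIK3CB, a catalytic subunit of PI3-kinase, fell by 0.32 (adjusted p = 0.0381) and 0.30 (adjusted p = 0.0396). The members of this list thus moved both ways. The calls of SOS1 and PIK3CB were lost when each array was centred on its median (adjusted p 0.054 for SOS1 and 0.0671 for PIK3CB) and when any 1 array was left out (0.104 to 0.163). The TSC1 call was lost without any 1 of the arrays (adjusted p 0.0676 to 0.153), that of IRS1 without PC3-BM replicate 2 or either PC3-P array (adjusted p 0.0564 to 0.0779), and that of SHC1 without PC3-P replicate 1 (0.0518) or replicate 2 (0.0572). Without 1 array fewer genes of the list were changed, as was so for the whole array. With the replicate number as a block 4 were changed, where 6473 of all 33297 probe sets were called.

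HMGA2 and IGF2 mRNA are known to be controlled by the IGF2 mRNA-binding proteins and the let-7 microRNAs. In this list 14 of 16 genes were measured, 1 rose and 4 fell (median −0.11), 5 genes of 14 beside the 29.3% of 1-symbol probe sets called. CDC25A, a cell-cycle phosphatase, had values of 6.17 and 6.31 in PC3-BM, against 7.74 and 7.74 in PC3-P, and fell by 1.497 on the log2 scale (SE 0.08, adjusted p = 0.00163). IGF2BP3 had values of 9.003 and 8.94 in PC3-BM, against 9.65 and 9.48 in PC3-P, and fell by 0.59 (SE 0.09, adjusted p = 0.0127). CDC25A and IGF2BP3 did not overlap between the lines, nor did 70.3% of probe sets with 1 gene symbol. The growth regulator MYC fell by 0.54 (adjusted p = 0.0121) and DICER1, the enzyme that cuts microRNA precursors, by 0.44 (adjusted p = 0.0126), while the cell-cycle kinase CDK6 rose by 0.40 (adjusted p = 0.0244). IGF2BP1 (−0.26, adjusted p = 0.0696), IGF2BP2 (−0.14, adjusted p = 0.351) and LIN28B (0.13, adjusted p = 0.484), which blocks let-7, did not pass the test. Without 1 array the list held fewer changed genes, as did the whole array. The calls of DICER1 and CDK6 were lost without any 1 array (adjusted p 0.0594 to 0.0803 for DICER1 and 0.0675 to 0.122 for CDK6). IGF2BP3 lost its call without either PC3-BM array or PC3-P replicate 1 (0.0574 to 0.0662), and MYC without PC3-BM replicate 2 or either PC3-P array (0.053 to 0.0792).

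A further list held genes linked to PLAG1 or to the network of imprinted genes to which PLAGL1 belongs. Of 19 genes 16 were measured, 2 rose, 3 fell and 11 did not pass the test (median −0.09), so 5 of 16 were called, against 29.3% of 1-symbol probe sets. MEST, an imprinted hydrolase of growing tissues, had values of 7.85 and 8.002 in PC3-BM, against 9.24 and 9.24 in PC3-P, and fell by 1.31 (SE 0.08, adjusted p = 0.00206). CRABP2, a retinoic acid carrier, had values of 7.41 and 7.25 in PC3-BM, against 8.62 and 8.61 in PC3-P, and fell by 1.28 (SE 0.09, adjusted p = 0.00236). CRIP2, a LIM-domain protein, had values of 10.17 and 10.16 in PC3-BM, against 11.06 and 10.98 in PC3-P, and fell by 0.86 (SE 0.07, adjusted p = 0.00352). These genes were lower on both PC3-BM arrays than on either PC3-P array. The lines did not overlap, in either direction, for 70.3% of probe sets with 1 gene symbol. SGCE, an imprinted sarcoglycan, had values of 10.31 and 10.35 in PC3-BM, against 9.62 and 9.48 in PC3-P, and rose by 0.79 (SE 0.08, adjusted p = 0.00518). TCEA1, a transcription elongation factor and fusion partner of PLAG1 in salivary adenomas, rose by 0.50 (SE 0.09, adjusted p = 0.0226), a call lost without PC3-BM replicate 1 or either PC3-P array (adjusted p 0.0803 to 0.118).

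**Figure D4:**
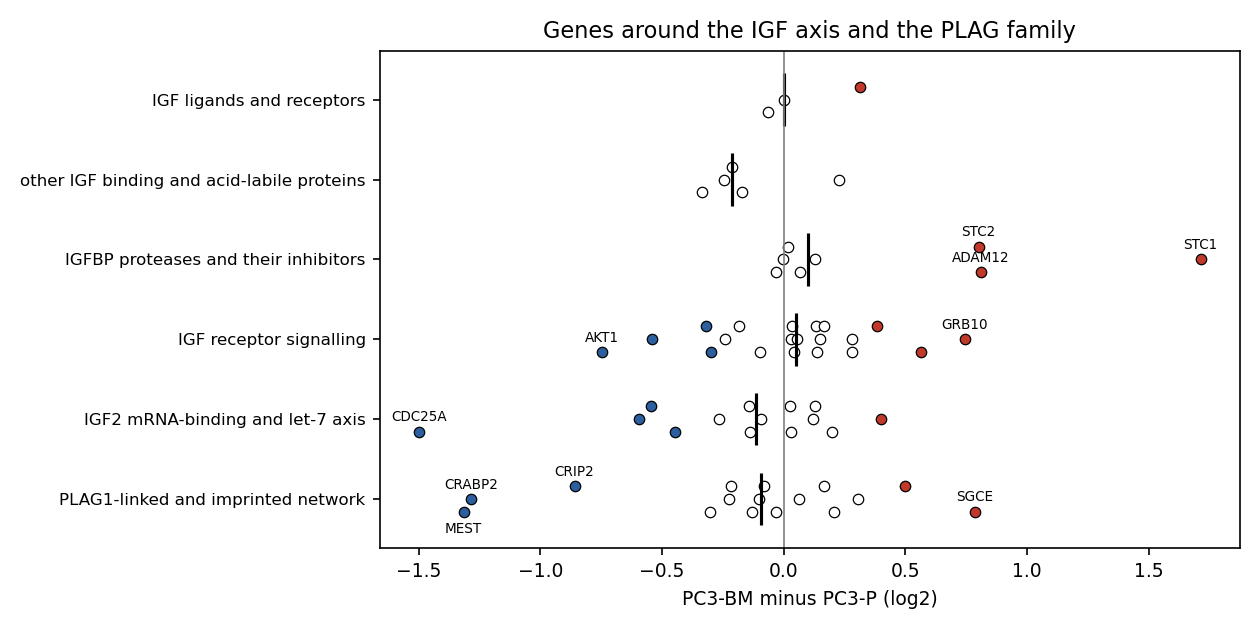
Difference in log2 value, PC3-BM minus PC3-P (x axis), of each measured gene in 6 lists around the axis (rows). Red dots rose, blue dots fell, open dots did not pass an adjusted p of 0.05 and black bars are list medians, which lie between −0.21 for the other binding proteins and 0.10 for the IGFBP proteases and their inhibitors.

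PLAG1 is known to bind GAGGC or GGGGC followed, after 6 to 8 bases of any kind, by GGG. The 250 bases before the annotated start are shown for the 3 members other than PLAG1 that passed the test, for PLAGL1 at the first of its 5 annotated starts, so that these letters can be seen where they fall. The windows are from RefSeq (GRCh38.p14), on the strand of the gene, and lie at chr6:144064600-144064849 (minus strand) for PLAGL1, chr6:159968832-159969081 (plus strand) for IGF2R and chr7:45921273-45921522 (minus strand) for IGFBP3. Capitals mark the motif on either strand, with overlapping matches joined.
PLAGL1: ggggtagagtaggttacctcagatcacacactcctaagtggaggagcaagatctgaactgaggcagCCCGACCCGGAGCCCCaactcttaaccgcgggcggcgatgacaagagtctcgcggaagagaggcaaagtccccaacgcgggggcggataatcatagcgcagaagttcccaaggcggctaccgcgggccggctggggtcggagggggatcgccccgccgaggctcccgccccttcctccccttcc
IGF2R: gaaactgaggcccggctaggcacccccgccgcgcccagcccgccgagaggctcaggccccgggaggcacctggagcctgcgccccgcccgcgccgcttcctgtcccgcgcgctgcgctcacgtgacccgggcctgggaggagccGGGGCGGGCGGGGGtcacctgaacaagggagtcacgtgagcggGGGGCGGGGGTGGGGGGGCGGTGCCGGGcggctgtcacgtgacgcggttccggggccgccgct
IGFBP3: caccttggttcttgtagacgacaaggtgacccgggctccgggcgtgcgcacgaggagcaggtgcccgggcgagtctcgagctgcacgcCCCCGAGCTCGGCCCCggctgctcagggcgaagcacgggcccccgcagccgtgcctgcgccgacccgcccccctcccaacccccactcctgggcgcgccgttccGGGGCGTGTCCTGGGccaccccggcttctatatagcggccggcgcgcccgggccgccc
Each spacing from the same GAGGC or GGGGC was counted as a match of its own, so matches can outnumber sites. The window of IGF2R held 5 matches, that of IGFBP3 held 3 and the one shown for PLAGL1 held 1. Of the other 4 windows of PLAGL1, the third of its starts had 4 matches and the rest had 0. The motif was in 29.7% of 35116 such windows, and windows with it were richer in G and C (median 68.8%, against 52.4% without). Windows were matched for 7 of the 10 genes, and 7 of their 13 windows held it, among them those of IGF1R and PLAGL2, which did not pass the test, while the 3 windows of IGFBP2 held none. A match describes letters and no binding was measured.

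Facts of the whole comparison bear on these values. RMA values ran from 2.30 to 14.4, Pearson's r, taken over probe sets that are not independent of each other, was 0.996 between the PC3-BM arrays and 0.997 between the PC3-P arrays, and it was 0.983 to 0.985 between lines. Of 4 measured epithelial markers all fell, led by KRT8 (−2.03) and EPCAM (−1.30), with list mean levels of 9.07 to 9.15 in PC3-BM and 10.12 to 10.14 in PC3-P. Of 4 measured blood markers none passed the test, with mean levels of 5.004 to 5.04 in PC3-BM and 4.98 to 5.06 in PC3-P, and 3 of them, PTPRC, CD3E and HBB, lay below the lower quartile of all values. Of 5 stromal markers LUM rose by 0.53 at low values of 4.15 and 4.04 in PC3-BM, against 3.50 and 3.63 in PC3-P, and the list mean was 5.11 to 5.13 in PC3-BM and 5.03 in PC3-P. Of 4 endothelial markers PECAM1 rose by 0.45, with list means of 7.02 in PC3-BM and 7.004 to 7.03 in PC3-P. KRT8 and EPCAM kept their calls when any 1 array was left out, whereas those of KRT18, KRT19 and PECAM1 were lost without any 1 array (adjusted p 0.0631 to 0.178) and that of LUM without PC3-BM replicate 1 or either PC3-P array (0.0608 to 0.0838). KLK3 and KLK2, the measured androgen-response markers, did not pass the test. Beside these marker counts, 29.3% of probe sets with 1 gene symbol were called. The part of these markers in the differences of the IGF axis genes was not tested.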

How the data were processed

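RNA of PC3-BM and PC3-P cells was hybridised to Affymetrix Human Gene 1.0 ST arrays, 2 per line. The deposited log2 values of 33297 probe sets were made by the authors with RMA, the robust multichip average, a method of background correction, quantile normalization and probe summary. Tools named in the submitters' processing notes are limma 3.24 and R 3.2. The values were used as deposited and no dim probe set was removed. The number of arrays limits the precision.

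Probe sets were named from the platform annotation. Of them, 19460 had 1 gene symbol, 1754 several and 12083 none, and 18389 of 18417 genes were matched by gene identifier to RefSeq (GRCh38.p14), which served for names and gene order. PC3-BM minus PC3-P was fitted in limma 3.58.1 (R 4.3.3) with empirical Bayes moderation, and p-values of all probe sets were adjusted by Benjamini-Hochberg. Rose and fell denote an adjusted p below 0.05. The fit was checked on simulated data. Members and lists were chosen with earlier results of these data known. Named genes were all members, up to 5 changed genes of each list with the largest differences, or the 2 brightest where none passed, some genes of the axis whatever their values, the 5 genes most like PLAG1 and the nearest neighbours of each member; others were chosen after their values were seen. Same-numbered arrays did not deviate together (r = −0.02), so the numbers were not taken as pairs. Scaling, brightness filters, probe set choice, an intensity trend, a replicate block and leaving out each array were alternatives.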

Additional observations from a re-analysis of the deposited data

How the results depend on the processing

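Over 12 alternatives, the 7 measured members other than PLAG1 gave 84 differences. Of these, 75 kept their direction and side of the threshold, 4 lost the call, 5 gained it and 0 reversed. Most alternatives could not reverse a difference. The brightness filters, the restriction to 1-symbol probe sets, the intensity trend and the replicate block leave it unchanged. The lines did not overlap for any of these genes, so leaving out 1 array could not change a sign either. PLAGL1 lost the call without 3 of the 4 arrays (leave-one-out differences 0.49 to 0.51, adjusted p 0.047 to 0.0638), and IGF2R without PC3-P replicate 2 (0.56 to 0.62). IGF1R gained it (−0.30) among probe sets with a mean above 6 and among 1-symbol probe sets, and IGFBP7 (0.38) in those and with a mean above 5. The leave-one-out ranges were 1.99 to 2.09 for PLAG1, −0.09 to −0.05 for PLAGL2, −0.39 to −0.21 for IGF1R, −0.19 to −0.10 for IGFBP2, −1.53 to −1.40 for IGFBP3 and 0.26 to 0.50 for IGFBP7. With the mean of both probe sets the IGF1R difference was −0.17.

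Of these 7 members 3 were changed, 3 with the replicate block, 5 among probe sets with a mean above 6 and 5 among 1-symbol probe sets. Calls on the whole array moved as well. With a mean above 6, 8813 probe sets were changed, against 7717 without the filter. Fitted alone, 7743 of the 19460 1-symbol probe sets were changed, against 5701 in the main fit. With 1 array left out, calls on the members and on the whole array were the same or fewer. Nothing is read from the counts of members or lists. Of all probe sets 7717 were changed, 6473 with the replicate block and 2238 to 3854 with 1 array left out (1305 to 2109 rose and 933 to 1745 fell). The replicate block took the ligands and receptors to 0 changed genes (0 to 0 with 1 array left out) and the signalling genes to 4 (2 to 4). The other binding proteins had 2 changed genes among probe sets with a mean above 6, 2 among 1-symbol probe sets and 1 with an intensity trend. The trend called 9004 of all probe sets. With 1 array left out, the let-7 list had 1 to 2 changed genes and the PLAG1-linked list 4 to 5. Differences that changed sign without PC3-BM replicate 2 were those of IGF1 (−0.155 to 0.0255 over the arrays left out), LIN28B (−0.0051 to 0.266) and LEMD1 (−0.0426 to 0.0042, and 0.0157 with median centring).

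At the thresholds of the study's methods, an adjusted p below 0.001 with an absolute difference above 2, there were 17 probe sets. The study reported a longer list of genes at these thresholds. The count was 84 with median centring, 29 with quantile normalization, 85 with a mean above 5 and 89 with a mean above 6. It was 83 among 1-symbol probe sets, 99 with a trend and 0 with the replicate block. The causes were not tested. The block changed no call on a member.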
